A study of Homo sapiens with 24 samples.

Results

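The ZNF genes studied here are the numbered ZNF symbols that lie on autosomes other than chromosome 19, with ZNF117 left out. The name pattern found 277 such genes among 55773 gene names of the deposited table. Of these, 198 had at least 10 reads in at least 3 libraries and are the members, and the other 79 fell short of that count. The statistical test covered 197 members, because ZNF891, with at most 13 reads in any library, missed the expression filter. By this rule every member lies on an autosome other than 19, and 161 ZNF genes on chromosome 19 that passed the same count served as the comparison.

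Most ZNF proteins bind DNA through arrays of C2H2 zinc fingers, in which a pair of cysteines and a pair of histidines hold a zinc ion. Many also carry a KRAB box, which recruits the co-repressor TRIM28, and TRIM28 in turn brings the H3K9 methyltransferase SETDB1 and HP1 proteins to the bound site. KRAB zinc finger genes sit in tandem clusters, most of them on chromosome 19, and the bodies of many of these genes are themselves marked by H3K9 trimethylation. Members without a KRAB box include general regulators of promoters and proteins that act on RNA or ribosomes.

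RNA was sequenced from U937 cells, a human myeloid line from a histiocytic lymphoma, in 24 libraries, 3 for each of 8 groups. Cells were given UNC0638, a small-molecule inhibitor of the H3K9 methyltransferases G9a and GLP, at 2 or 4 µM and harvested after 3 days, and DMSO served as the vehicle. Other cells were transduced with lentiviral hairpins against G9a (hairpins 2 and 3) or SUV39H1 (hairpins 2 and 4), or with a scrambled hairpin, and kept in puromycin for 3 days. The study set out to disrupt a complex of SUV39H1, G9a and GLP. U937 is 1 cell line, hairpin cells carry a virus and a drug selection that the UNC0638 and DMSO cells lack, and the labels do not say whether libraries of a group are separate cultures. P-values therefore measure only the spread between these libraries.

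Libraries held 31545854 to 53803704 counts, and the members took 192614 to 358644 of them. Counts are given as CPM, read counts scaled to a fixed library size after TMM scaling, so a level can be compared between libraries but not between genes of different length. The hairpins lowered their targets. EHMT2, the G9a gene, averaged 73.7 ± 2.79 and 73.2 ± 3.69 CPM with G9a hairpins 2 and 3, against 144 ± 8.52 CPM with the scrambled hairpin, and SUV39H1 averaged 18.6 ± 0.403 and 21.1 ± 1.84 CPM with its hairpins 2 and 4, against 58.2 ± 1.68 CPM (SD, n = 3 each). Of 10 myeloid markers, 9 or 10 exceeded 1 CPM in every group. Of 13 markers of other lineages, 10 or 11 averaged under 0.1 CPM per group. Within DMSO, replicate 1 differed most from the others (chi-square per degree of freedom of 9.29 and 20.7, against 2.74 between replicates 2 and 3). In bulk RNA, fewer cells that express a gene and less RNA per cell cannot be told apart.

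The members were a mixed set. A KRAB box was assigned to 85 of them. A list from general knowledge gave 73, and a residue pattern in the longest reading frame of their transcripts gave 65. The other 113 carried neither. Of the listed genes 19 lacked the pattern, 12 genes with the pattern were not listed, and 9 members had no reading frame to search. The class is therefore approximate, and the 113 can hold KRAB genes that both ways missed. Mean levels over the 24 libraries ran between 0.12 and 249.8 CPM with a median of 18.5 CPM. Per kilobase of summed exon length the median was 3.53 CPM, at 2.76 CPM for KRAB members and 4.34 CPM for the rest. The highest CPM belonged to ZNF318 (249.8), ZNF207 (a mitotic spindle and RNA-binding protein) and ZNF664, while ZNF768 led per kilobase at 39.3 CPM. ZNF300, ZNF705E and ZNF891 were the lowest. Members of 10 clusters, each with at least 4 members and less than 500 kb between neighbours, made up 63 of the 198.

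In 1 cluster every tested member was called lower at 4 µM UNC0638. It holds 7 KRAB members, 6 of them tested, at the end of chromosome 12 (chr12:133498019-133783698 on hg19, the files' build), namely ZNF605, ZNF26, ZNF84, ZNF140, ZNF891, ZNF10 and ZNF268. Promoter stretches are shown for the 5 of these that were well measured, because the data below describe them as moving together. Each is the 250 bases before the RefSeq start on the gene's own strand (GRCh38.p14), and capitals mark the motifs found on either strand. ZNF605 came from chr12:132956307-132956556 (minus), ZNF26 from chr12:132986117-132986366, ZNF84 from chr12:133037259-133037508, ZNF140 from chr12:133080673-133080922 and ZNF268 from chr12:133181245-133181494 (all plus).
ZNF605: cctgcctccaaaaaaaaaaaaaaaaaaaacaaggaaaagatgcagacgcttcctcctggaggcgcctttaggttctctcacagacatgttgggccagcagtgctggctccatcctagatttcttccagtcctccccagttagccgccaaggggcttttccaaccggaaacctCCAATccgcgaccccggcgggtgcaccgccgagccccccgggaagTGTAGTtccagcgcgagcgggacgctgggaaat
ZNF26: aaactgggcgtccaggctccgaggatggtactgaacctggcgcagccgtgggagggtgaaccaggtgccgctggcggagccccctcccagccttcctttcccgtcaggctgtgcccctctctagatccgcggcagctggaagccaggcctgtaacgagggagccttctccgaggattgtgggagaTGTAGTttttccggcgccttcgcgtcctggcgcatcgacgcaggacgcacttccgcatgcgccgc
ZNF84: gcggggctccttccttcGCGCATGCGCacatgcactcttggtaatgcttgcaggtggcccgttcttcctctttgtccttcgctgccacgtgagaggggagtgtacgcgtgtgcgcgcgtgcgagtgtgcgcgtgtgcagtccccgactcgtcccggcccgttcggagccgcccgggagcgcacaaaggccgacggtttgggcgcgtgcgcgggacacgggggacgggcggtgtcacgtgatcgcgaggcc
ZNF140: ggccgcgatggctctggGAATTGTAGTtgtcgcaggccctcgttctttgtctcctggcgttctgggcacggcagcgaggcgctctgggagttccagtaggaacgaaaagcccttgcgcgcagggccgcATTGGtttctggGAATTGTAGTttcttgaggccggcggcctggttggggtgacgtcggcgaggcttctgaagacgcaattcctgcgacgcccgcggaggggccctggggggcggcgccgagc
ZNF268: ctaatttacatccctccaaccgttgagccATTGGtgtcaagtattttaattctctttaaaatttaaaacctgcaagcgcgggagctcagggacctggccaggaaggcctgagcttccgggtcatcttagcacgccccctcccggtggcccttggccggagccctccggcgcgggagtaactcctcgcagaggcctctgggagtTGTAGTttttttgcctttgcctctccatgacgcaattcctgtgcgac

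ZNF140 held the ZNF143 core motif (the longer capital runs) on the other strand at 2 places. That 10-letter core was present in 4 of the 156 member promoters that the RefSeq table held (2.56%) and in 0.267% of all 27305 promoters of the same length. Its first 6 letters, ACTACA or TGTAGT, were chosen after these sequences had been read, and they overlap the longer core. They stood in ZNF605, ZNF26, ZNF140 and ZNF268, 4 of the 7 promoters of the cluster (57.1%), against 14.1% of member promoters and 7.76% of all promoters. The CCAAT box (CCAAT or ATTGG) stood in ZNF605, ZNF140, ZNF268 and ZNF10, and in 40.4% of member and 33.0% of all promoters. ZNF84 held the palindromic NRF1 motif (in capitals), present in 3.85% of member and 1.13% of all promoters. The ETS motif CCGGAAGT was found in 12.2% of member promoters, against 3.64% of all, and the TATA box TATAAA in 3.21% against 11.1%. Member promoters had a median GC content of 64.2% with 21 CpG dinucleotides, against 58.0% and 11 over all promoters. These matches describe letters only.

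With 4 µM UNC0638, the members that moved mostly fell, and KRAB genes in clusters made up 17 of the falls. By edgeR's quasi-likelihood test with Benjamini-Hochberg adjustment over 20147 genes (threshold 0.05), 39 members fell and 8 rose relative to DMSO. Over all genes tested, 9.73% fell and 10.2% rose. The median log2 fold change was -0.06 for members and -0.01 for all genes. Chromosome 19 ZNF genes, measured in the same fit, had 83 of 160 lower and 2 higher, with a median of -0.30. At 2 µM, 23 members fell and 3 rose, where 3.34% of all genes fell and 3.83% rose, and the members' median was -0.05. Beside members named for 4 µM, ZNF721 (-0.33), ZNF200 (-0.36) and ZNF605 (-0.38) were among the named falls at 2 µM on the log2 scale. Both comparisons shared the 3 DMSO libraries. Without DMSO replicate 1 the count of risen members at 4 µM was 16, and without DMSO replicate 3 it was 5. With only the compared libraries in the fit, 21 members fell and 3 rose at 4 µM, and 13 fell and 1 rose at 2 µM. The 10 myeloid markers summed to 1316 to 1411 CPM at 4 µM, against 1493 to 1617 CPM in DMSO, and the 13 markers of other lineages to 19.8 to 22.2 CPM, against 28.7 to 34.0 CPM, and their part in these counts was not tested.

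KRAB members fell in a larger share than the rest, but the shares were close among members in clusters and among members outside them. At 4 µM, 22 of 84 tested KRAB members fell and 1 rose, with a median log2 fold change of -0.12, while 17 of 113 members without a KRAB assignment fell and 7 rose, with a median of -0.02. Of 62 tested members inside clusters 23 fell, against 16 of 135 outside clusters, and the 8 risen members all lay outside. KRAB members in clusters had 17 of 45 lower (37.8%), and members in clusters without a KRAB assignment had 6 of 17 (35.3%). Outside clusters, 5 of 39 KRAB members (12.8%) and 11 of 96 of the rest (11.5%) were lower. With the compared libraries alone, 13 KRAB members fell and 8 of the rest fell and 3 rose, and 15 members in clusters and 6 outside fell. Among the rest, 10 fell without 4 µM replicate 2, 11 without DMSO replicate 2 or 3, and 14 rose without DMSO replicate 1. At 2 µM, 13 KRAB members fell (8 with the compared libraries alone), and 14 of the 23 lower members lay in clusters. At that dose 22.2% of KRAB members and 23.5% of the rest fell in clusters, and 7.69% and 6.25% outside them. These shares are a description, and the difference between classes was not tested. The members without an assignment can hold KRAB genes missed by list and pattern, so the close shares compare assignments only.

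**Figure D1:**
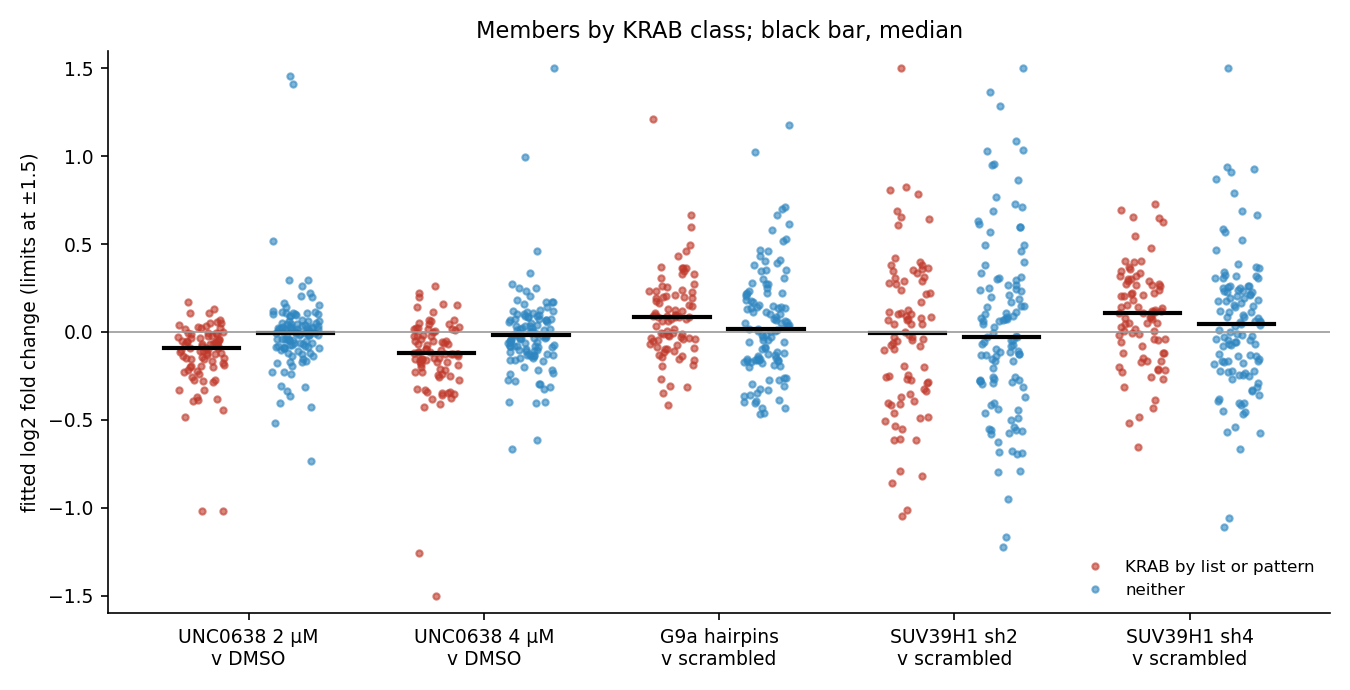
Fitted log2 fold change (vertical axis) of each tested member in 5 comparisons, with KRAB members in red, the rest in blue and black bars at the medians; points past 1.5 are drawn at that limit. The red median lies at -0.12 with 4 µM UNC0638 and at 0.09 with the G9a hairpins.

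Summed over the 85 KRAB members, the level was 1517, 1476 and 1454 CPM in the 4 µM libraries, against 1648, 1576 and 1570 CPM in DMSO. Every 4 µM library lay below every DMSO library. Over the 113 other members the sums were 4433, 4466 and 4440 CPM at 4 µM, against 4645, 4534 and 4481 CPM in DMSO, also without overlap. With G9a hairpins the KRAB sum spanned 1685 to 1762 CPM over 6 libraries, against 1604 to 1657 CPM with the scrambled hairpin, so it lay on the other side of its control. With SUV39H1 hairpin 2 it was 1578, 1559.9 and 1576 CPM and with hairpin 4 it spanned 1738 to 1739 CPM, below and above the scrambled libraries.

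**Figure D2:**
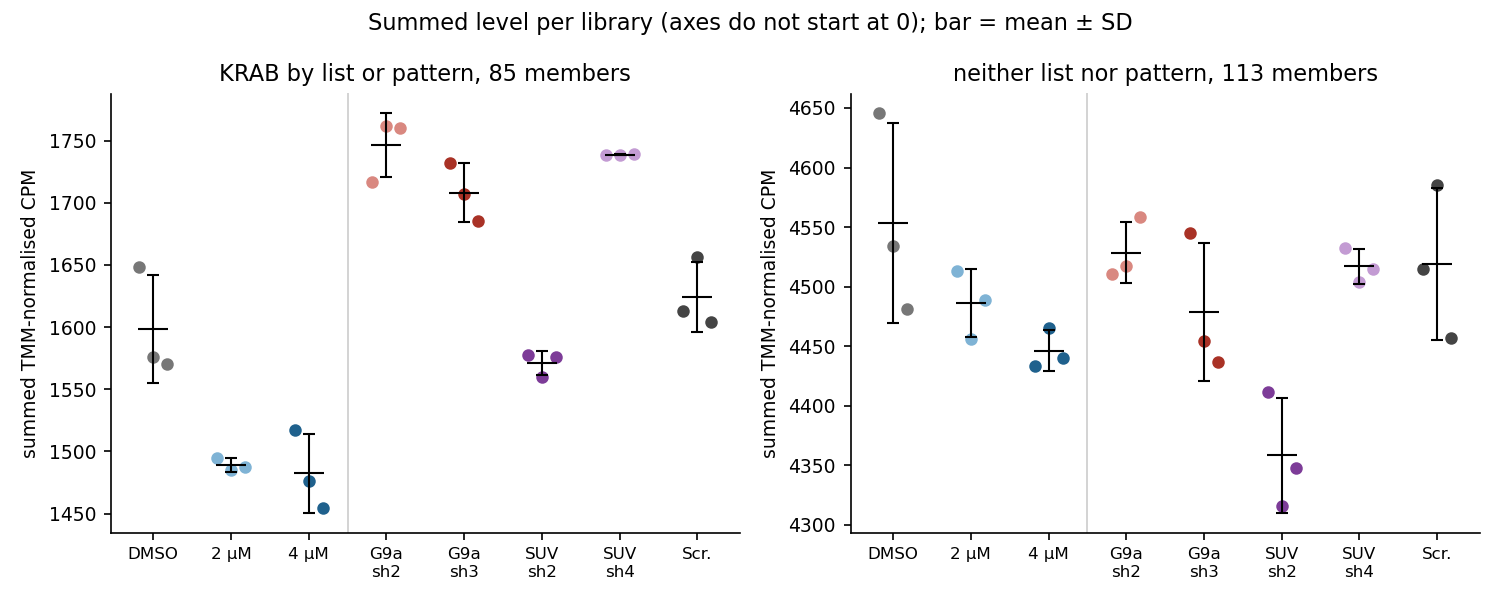
Summed TMM-normalised CPM per library for KRAB members (left) and the other members (right) in each of the 8 groups; points are libraries and bars the mean ± SD, on axes that do not start at 0. In the left panel the UNC0638 libraries span 1454 to 1517 CPM, below every DMSO library, and the G9a hairpin libraries lie above every scrambled library.

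On chromosome 12, the 6 tested cluster members fell at 4 µM, and 5 of them fell at 2 µM. ZNF140, a KRAB repressor at chr12:133656424-133684130 (plus strand), had 13.0, 11.7 and 12.3 CPM at 4 µM, against 17.8, 16.4 and 15.6 CPM in DMSO. All 3 treated libraries lay below all 3 controls, and the log2 fold change was -0.43 ± 0.06 (SE; edgeR adjusted p = 1.46e-05). At 2 µM ZNF140 had 12.5, 11.5 and 12.6 CPM, a log2 fold change of -0.44 (edgeR adjusted p = 2.20e-05), so the doses gave nearly the same level. ZNF84, at chr12:133613878-133639885 (plus strand), had 44.0, 40.3 and 39.4 CPM at 4 µM, against 56.9, 50.4 and 51.3 CPM in DMSO. Those groups did not overlap either, with a log2 fold change of -0.36 ± 0.05 (edgeR adjusted p = 1.11e-05).

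ZNF26 averaged 15.7 ± 0.871 CPM at 4 µM, against 20.0 ± 1.32 CPM in DMSO, and ZNF605 averaged 6.71 ± 0.343 CPM, against 8.41 ± 0.605 CPM (SD, n = 3 each). Their log2 fold changes were -0.35 and -0.32, and both fell again at 2 µM (-0.33 and -0.38). ZNF268, at chr12:133707570-133783698, averaged 5.38 ± 0.696 CPM at 4 µM, against 6.82 ± 0.732 CPM in DMSO, with a log2 fold change of -0.35 (edgeR adjusted p = 0.0106). That call did not pass without 4 µM replicate 3 (0.0844) or without DMSO replicate 1 (0.0707). ZNF10, a KRAB repressor, was near the detection limit, with 2, 5 and 0 reads at 4 µM, against 10, 8 and 6 reads in DMSO. Its ratio per library size was 0.260 (95% exact binomial interval 0.0948 to 0.623, counting error only), and its call (edgeR adjusted p = 0.0269) was lost without 4 µM replicate 1 or 3 or DMSO replicate 1 or 2 (0.0618 to 0.127). The untested ZNF891 had 4, 1 and 4 reads at 4 µM, against 10, 4 and 3 in DMSO.

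**Figure D3:**
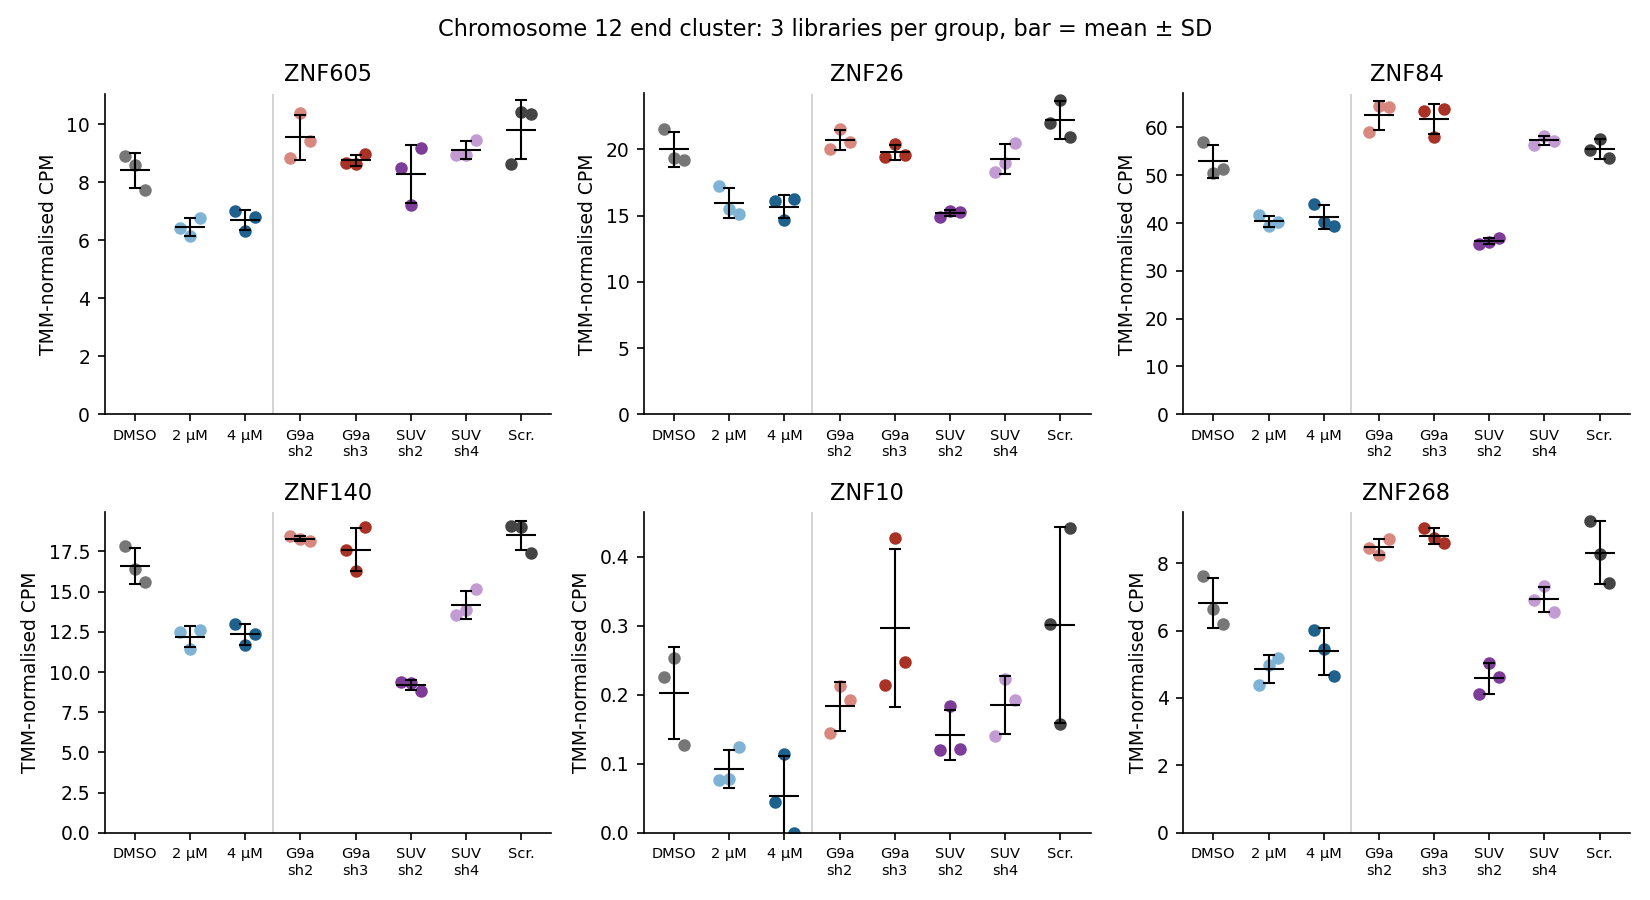
TMM-normalised CPM (vertical axes, from 0) of the 6 tested members of the chromosome 12 cluster in each group; points are the 3 libraries and bars the mean ± SD. ZNF84, ZNF140 and ZNF268 are low in the UNC0638 and SUV39H1 hairpin 2 libraries, and the UNC0638 libraries hold at most 0.124 CPM of ZNF10.

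A cluster on the short arm of chromosome 16 (chr16:3179778-3493542, hg19) followed, with 4 of its 6 members lower at 4 µM and the same number at 2 µM. ZNF75A, at chr16:3355406-3368852 (plus strand), showed the largest named fall at both doses. It had 18.7, 19.04 and 17.3 CPM at 4 µM, against 31.1, 28.4 and 27.6 CPM in DMSO. No libraries overlapped, and the log2 fold change was -0.66 ± 0.05 at 4 µM (edgeR adjusted p = 2.43e-10) and -0.73 at 2 µM (edgeR adjusted p = 1.28e-10). TIGD7, a gene on the opposite strand that overlaps it, had a log2 fold change of -0.62 at 4 µM. Because the library kit does not mark strand, reads of overlapping genes cannot be told apart, here or for any of the 133 members whose interval overlaps another gene. The ZNF75A promoter is shown because it carries the ETS motif near the gene start, in capitals on the opposite strand (chr16:3305247-3305496, plus, GRCh38.p14).
ZNF75A: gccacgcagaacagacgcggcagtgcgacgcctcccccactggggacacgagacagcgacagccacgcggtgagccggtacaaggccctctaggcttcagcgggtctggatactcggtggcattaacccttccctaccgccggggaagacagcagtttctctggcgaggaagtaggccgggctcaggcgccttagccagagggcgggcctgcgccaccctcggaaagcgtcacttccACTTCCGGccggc

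In the same cluster, ZNF200 averaged 17.2 ± 0.988 CPM at 4 µM, against 21.1 ± 1.03 CPM in DMSO, ZNF174, a SCAN-domain protein, averaged 9.85 ± 0.468 CPM, against 13.0 ± 0.684 CPM, and ZNF263 averaged 44.6 ± 0.808 CPM, against 51.6 ± 1.60 CPM (SD, n = 3 each). Their log2 fold changes were -0.30, -0.40 and -0.21, and the 4 µM libraries lay below the DMSO libraries for each. ZNF213 and ZNF597, at the ends of the cluster, had log2 fold changes of -0.13 and 0.02, neither past the threshold (edgeR adjusted p = 0.231 and 0.931). Within the cluster the falls were therefore unequal.

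Outside these clusters, the other named falls at 4 µM were ZNF395 (log2 -0.61), ZNF669 (-0.41), ZNF467 (-0.41), ZNF32 (-0.40), ZNF273 (-0.38) and ZNF248 (-0.35). ZNF395, at chr8:28203102-28260218 (minus strand), had 70.0, 76.0 and 76.3 CPM at 4 µM, against 109.9, 116 and 114 CPM in DMSO. It was also a member that fell further with the higher dose, with 89.1, 90.8 and 93.1 CPM at 2 µM and a log2 fold change of -0.30 ± 0.04 at 4 µM relative to 2 µM (edgeR adjusted p = 3.65e-05). ZNF669, a KRAB gene on chromosome 1, averaged 7.87 ± 0.336 CPM at 4 µM, against 10.5 ± 0.985 CPM in DMSO (SD, n = 3 each). The call for ZNF467 at 4 µM was lost without 4 µM replicate 1 or 2 or DMSO replicate 2 or 3 (edgeR adjusted p = 0.0888 to 0.130). The FBXO16 gene, which overlaps ZNF395 on its strand, had a log2 fold change of -0.56 at 4 µM.

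Between 4 and 2 µM, 2 members fell (ZNF395 and ZNF516) and 0 rose by edgeR, where 0.452% of all genes fell and 1.39% rose. At an unadjusted p under 0.05 there were 13 lower and 7 higher members, and DESeq2 called 2 lower and 1 higher. ZNF516, a repressor that binds DNA, had a log2 fold change of -0.14 (edgeR adjusted p = 0.0471), a call lost on leaving out any of the 6 compared libraries (0.117 to 0.167).

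The named rises at 4 µM, all in members above 1 CPM, were between 0.16 and 0.34 on the log2 scale. ZNF518A, reported as a partner of the G9a and GLP enzymes, had 96.4, 90.2 and 85.5 CPM at 4 µM, against 81.5, 69.5 and 64.5 CPM in DMSO, a log2 fold change of 0.34 ± 0.06 (edgeR adjusted p = 0.000269). The libraries did not overlap, with DMSO replicate 1 the nearest to the treated range. ZNF438 (0.18), ZNF622 (0.17) and ZNF326 (0.16) were the other named rises at 4 µM, and ZNF462, with a log2 fold change of 0.51 at 2 µM, joined ZNF518A there. ZNF831, whose mean over all libraries was under the 1 CPM needed for naming, was the other rise at 2 µM, with 0.757, 1.07 and 0.701 CPM, against 0.383, 0.285 and 0.233 CPM in DMSO, and a log2 fold change of 1.46 (edgeR adjusted p = 0.000131). ZNF462 lost its 2 µM call without DMSO replicate 1 (edgeR adjusted p = 0.131) or 2 µM replicate 1 or 2 (0.0806 and 0.101), and ZNF622 its 4 µM call without DMSO replicate 2 (0.0522). The remaining risen members at 4 µM were ZNF366, ZNF462, ZNF267 and ZNF831, named after their values were seen. ZNF831 averaged 0.601 ± 0.0757 CPM at 4 µM, against 0.300 ± 0.0765 CPM in DMSO, with a log2 fold change of 1.00 (edgeR adjusted p = 0.00579).

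With the G9a hairpins, more members rose than fell, and the rises reached across several clusters. For the mean of both hairpins relative to scrambled, 64 members rose and 40 fell, where 25.0% of all genes rose and 24.9% fell. The 64 include ZNF705E, which met the count minimum only through these hairpin groups and is described below. The median log2 fold change was 0.05 for members, 0.01 for all genes and 0.11 for the chromosome 19 ZNF genes. KRAB members had 30 higher and 10 lower (6 without scrambled replicate 2) of 84, and the rest 34 higher and 30 lower of 113. By number of C2H2 fingers, members with 0 to 4 had 9 higher and 20 lower of 45, those with 5 to 9 had 24 higher and 5 lower of 65, and those with 10 or more had 29 higher and 13 lower of 78. No member passed the threshold between G9a hairpins 2 and 3: edgeR called 0 higher and 0 lower, DESeq2 also called 0 and 0, and 3 higher and 2 lower had an unadjusted p under 0.05. Over all genes, 0.00496% were higher and 0.00496% lower between these hairpins. The 10 myeloid markers summed to 2423 to 2601 CPM with the G9a hairpins, against 1625 to 1685 CPM with scrambled, and the 13 markers of other lineages to 7.74 to 8.86 CPM, against 20.8 to 24.3 CPM, and their part in these counts was not tested.

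ZNF789 rose most among the named members. This KRAB gene at chr7:99070464-99101273 (plus strand) had 61.6, 71.4 and 69.1 CPM with G9a hairpin 2 and 66.3, 66.8 and 61.7 CPM with hairpin 3, against 27.0, 29.6 and 29.1 CPM with the scrambled hairpin. All 6 hairpin libraries lay above every scrambled library, and the log2 fold change was 1.21 ± 0.06 (edgeR adjusted p = 3.67e-15). ZNF394, on the opposite strand over the same interval, had a log2 fold change of 0.20. ZNF789, ZNF394, ZNF655 (0.27) and ZNF3 (0.18) form a cluster on chromosome 7 (chr7:99070464-99680171, hg19), and all 4 rose.

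Other clusters rose in part. On chromosome 3 (chr3:44481262-44702283, hg19) ZNF445, a KRAB gene that helps keep imprinted regions methylated, rose by 0.37 on the log2 scale, ZNF852 by 0.38 and ZNF197 by 0.31, while ZNF35 had a log2 fold change of -0.03 and no call. At the far end of chromosome 7 (chr7:148766735-149564568, hg19) 7 of 11 members rose, a count that was 4 with DESeq2 and without G9a hairpin 3 replicate 1, scrambled replicate 1 or scrambled replicate 2. The chromosome 12 cluster did not follow: ZNF84 rose by 0.16 (edgeR adjusted p = 0.00350), ZNF26 fell by a log2 fold change of -0.14 (edgeR adjusted p = 0.0310; lost without any of 5 libraries, at up to 0.284 without scrambled replicate 2), and the other 4 tested members were not called. ZNF75A rose, with 40.8, 44.2 and 44.5 CPM for hairpin 2 and 42.3, 41.8 and 41.4 CPM for hairpin 3, against 32.1, 33.3 and 30.4 CPM with scrambled. Its log2 fold change was 0.41 ± 0.04 (edgeR adjusted p = 1.21e-08).

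Among single genes that rose with the G9a hairpins, ZNF76, a close relative of ZNF143, averaged 52.7 ± 1.72 and 55.8 ± 2.47 CPM with hairpins 2 and 3, against 33.1 ± 1.97 CPM with scrambled (SD, n = 3 each; log2 0.71). DMSO cells stood at 48.4 ± 5.16 CPM for the same gene, above every scrambled library. ZNF687 stood at 36.9 ± 0.868 and 38.5 ± 1.08 CPM with hairpins 2 and 3, against 26.2 ± 1.48 CPM with scrambled, beside 41.3 ± 1.99 CPM in DMSO. ZNF717 (0.70), ZNF79 (0.67), ZNF774 (0.62), ZNF641 (0.60), ZNF189 (0.49), ZNF70 (0.47), ZNF596 (0.46), ZNF516 (0.46) and ZNF514 (0.43) completed the named rises on the log2 scale.

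Falls with the G9a hairpins were smaller. ZNF804A, named in psychiatric genetics, had 3.51, 4.13 and 3.62 CPM with hairpin 2 and 4.15, 4.24 and 3.85 CPM with hairpin 3, against 5.61, 6.03 and 4.56 CPM with scrambled. The hairpin libraries all lay below the scrambled ones, with a log2 fold change of -0.47 ± 0.08 (edgeR adjusted p = 1.59e-05). Scrambled cells were themselves higher than DMSO cells for ZNF804A, as given with the control groups below. The developmental repressor ZNF503 (-0.46), ZNF385A (-0.43), ZNF672 (-0.43), ZNF74 (-0.41), the ribosome assembly factor ZNF593 (-0.40) and ZNF24 (-0.40) followed on the log2 scale. The other named falls were ZNF609, ZNF395, ZNF639, ZNF689 and ZNF259, between -0.39 and -0.34.

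UNC0638 and the G9a hairpins reach the same enzyme by different means, and the comparisons share no libraries. Of the 39 members lower at 4 µM, 17 were higher with the G9a hairpins and 4 were lower (ZNF395, ZNF174, ZNF26 and ZNF672). Of the 64 members higher with the G9a hairpins, those 17 were 26.6%, and of the 39 they were 43.6%. Over all tested genes, 1004 of the 1960 lower at 4 µM were higher with the G9a hairpins (51.2%) and 332 were lower (16.9%), so the members' share of opposite calls was no larger than that of all genes. Across the 197 tested members the log2 fold changes had a Pearson r of 0.204 and a Spearman rho of -0.0629, a description over genes from the same libraries. A direct contrast of the responses, 4 µM relative to DMSO minus the hairpins relative to scrambled, was lower in 75 members and higher in 28, where 22.3% and 22.5% of all genes were lower and higher. KRAB members had 38 lower and 5 higher of 84.

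ZNF789 and ZNF75A showed the widest differences of response, -1.37 ± 0.09 and -1.08 ± 0.07 on the log2 scale (edgeR adjusted p = 2.38e-12 and 1.50e-12). ZNF596 (-0.80) and ZNF713 (-0.75) were next. In the other direction, ZNF804A (0.72), ZNF487 (0.60), ZNF462 (0.60) and ZNF385A (0.55) stood higher with UNC0638. The contrast is of changes, so a member can differ without a call in either comparison alone.

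**Figure D4:**
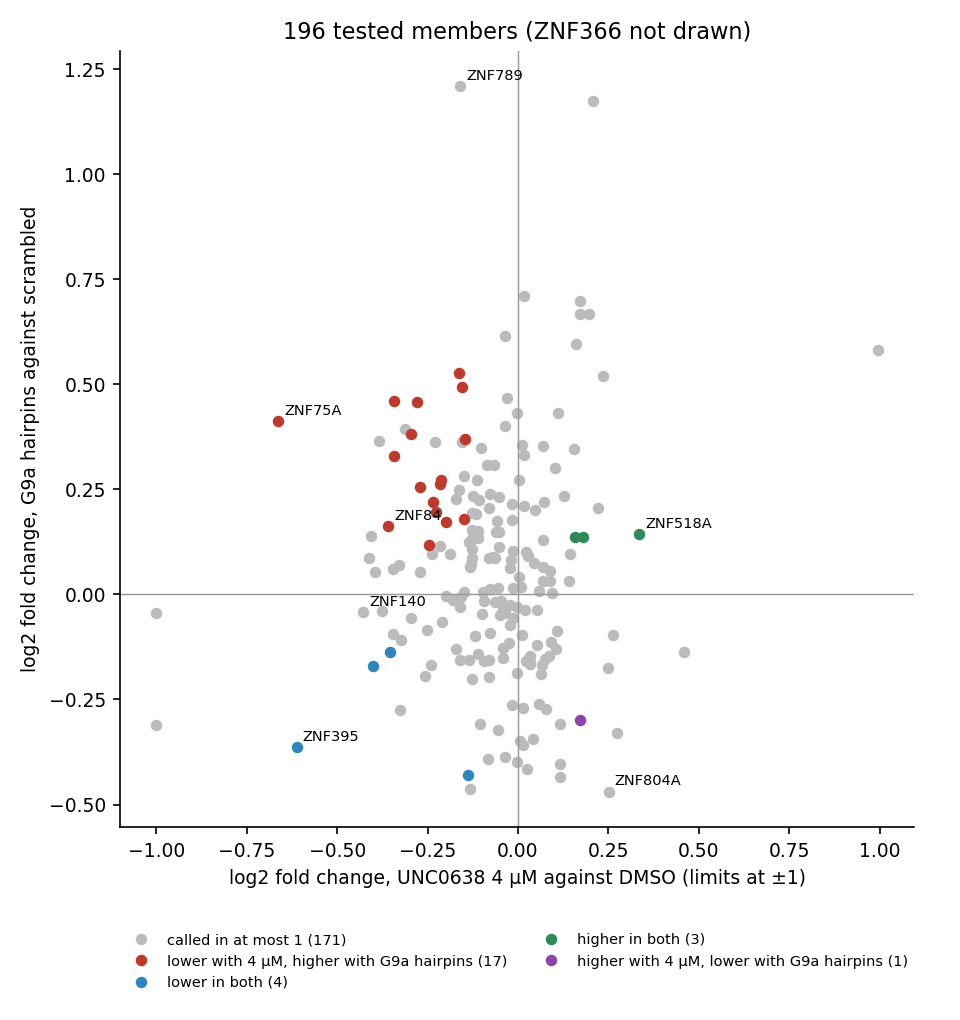
Each point is a tested member, with its log2 fold change at 4 µM UNC0638 against DMSO on the horizontal axis (drawn at the limit past 1) and with the G9a hairpins against scrambled on the vertical axis. ZNF366 is not drawn. The 17 red members are lower with the inhibitor and higher with the hairpins, and 4 blue members are lower in both.

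With the SUV39H1 hairpins, members were called about as often as all genes, in both directions. For the mean of both hairpins relative to scrambled, 69 members rose and 66 fell, where 35.1% of all genes rose and 32.7% fell. The median was 0.02 for members and 0.03 for all genes, and 45 of 160 chromosome 19 ZNF genes rose and 55 fell. Hairpin 2 alone gave 59 higher and 77 lower members, where 34.5% and 32.6% of all genes rose and fell. Hairpin 4 alone gave 73 higher and 50 lower, where 31.8% and 29.2% of all genes did. Myeloid marker levels also moved in these cells: the summed CPM of 10 of them spanned 2773 to 4467 with the SUV39H1 hairpins, against 1625 to 1685 with scrambled. The 13 markers of other lineages summed to 15.5 to 16.4 CPM with hairpin 2 and 19.8 to 22.0 CPM with hairpin 4, against 20.8 to 24.3 CPM with scrambled. Their part in the members' changes was not tested.

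ZNF76 rose most among the named members, with 79.3, 81.9 and 81.1 CPM for hairpin 2 and 62.0, 61.3 and 67.1 CPM for hairpin 4, against 31.3, 32.8 and 35.2 CPM with scrambled. Every hairpin library lay above every scrambled library, and the log2 fold change was 1.11 ± 0.05 (edgeR adjusted p = 1.06e-15). In this case the hairpin libraries also lay above all DMSO libraries (42.6 to 52.3 CPM). ZNF774 (0.95), ZNF467 (0.93), ZNF687 (0.87), ZNF641 (0.72) and ZNF789 (0.72) followed on the log2 scale, and ZNF688, ZNF469, ZNF367, ZNF219 and ZNF385A were named rises between 0.58 and 0.67. ZNF467 averaged 5.47 ± 0.525 and 5.27 ± 0.124 CPM with hairpins 2 and 4, against 2.83 ± 0.325 CPM with scrambled (SD, n = 3 each). ZNF107, a KRAB gene in the chromosome 7 cluster near the centromere, averaged 41.3 ± 0.563 and 42.8 ± 1.01 CPM, against 26.3 ± 2.85 CPM, and 4 of the 5 members of that cluster rose.

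The falls included members that act on ribosomes. ZNF593, a ribosome assembly factor at chr1:26496362-26498551 (plus strand), had 9.10, 9.82 and 8.60 CPM with hairpin 2 and 9.62, 9.62 and 9.31 CPM with hairpin 4, against 20.9, 19.6 and 21.3 CPM with scrambled. The groups did not overlap, and the log2 fold change was -1.14 ± 0.05 (edgeR adjusted p = 3.17e-17). A transcript on the opposite strand over the same interval, RP11-96L14.7, had a mean of 677 reads, against 676 for ZNF593, and a log2 fold change of -1.13. As the kit does not mark strand, these cannot be read as separate measurements. ZNF598, a ubiquitin ligase that senses collided ribosomes, changed by -0.34 and ZNF622, which acts late in assembly of the large ribosomal subunit, by -0.49. All 3 members of the ribosome list thus fell, where 32.7% of all genes did. That list is short and was chosen with earlier results of these data known, so the count is a description. ZNF259, also called ZPR1, averaged 40.6 ± 2.87 and 53.9 ± 1.17 CPM with hairpins 2 and 4, against 78.5 ± 1.97 CPM (log2 -0.75).

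ZNF512B, the other large fall (-1.14 ± 0.17, edgeR adjusted p = 9.56e-07), was low, with 0.583 to 0.987 CPM in the hairpin libraries, against 1.42 to 1.64 CPM with scrambled. ZNF511 (-0.67), ZNF74 (-0.65), ZNF503 (-0.63), ZNF35 (-0.60), ZNF771 (-0.55), ZNF783 (-0.52) and ZNF32 (-0.51) were further named falls on the log2 scale. Several of these share their interval with a gene of more reads. PRPF6 over ZNF512B had a log2 fold change of -0.21, TUBGCP2 over ZNF511 had -0.35 and DCTPP1 over ZNF771 had -0.81.

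Relative to scrambled, the chromosome 12 cluster fell with the mean of the SUV39H1 hairpins, in all 6 tested members (4 without scrambled replicate 3), with a median log2 fold change of -0.47. Hairpin 2 alone had 6 lower and hairpin 4 alone 3. The scrambled control itself lay above DMSO here, with a median log2 fold change of 0.19, 2 members called higher and 0 below zero change. ZNF140 had 9.39, 9.30 and 8.84 CPM with hairpin 2 and 13.6, 13.8 and 15.2 CPM with hairpin 4, against 19.1, 18.99 and 17.4 CPM with scrambled. No libraries overlapped, hairpin 2 lay lowest, and the log2 fold change of the mean was -0.70 ± 0.05 (edgeR adjusted p = 1.19e-11). ZNF268 averaged 4.59 ± 0.459 and 6.93 ± 0.376 CPM, against 8.32 ± 0.927 CPM (log2 -0.56). ZNF84 fell with hairpin 2, at 36.2 ± 0.674 CPM, but averaged 57.3 ± 0.913 CPM with hairpin 4, against 55.5 ± 2.05 CPM with scrambled. ZNF605 (-0.18) lost its call without scrambled replicate 2 or 3 (edgeR adjusted p = 0.152 and 0.106) or hairpin 2 replicate 2 (0.0657). ZNF10 had 5, 6 and 5 reads with hairpin 2 and 8, 11 and 9 with hairpin 4, against 10, 8 and 18 with scrambled, a call (edgeR adjusted p = 0.0419) lost without any of 6 libraries, at up to 0.394 without scrambled replicate 3. ZNF75A averaged 21.6 ± 0.638 and 28.5 ± 0.617 CPM, against 31.9 ± 1.45 CPM, a log2 fold change of -0.36.

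**Figure D5:**
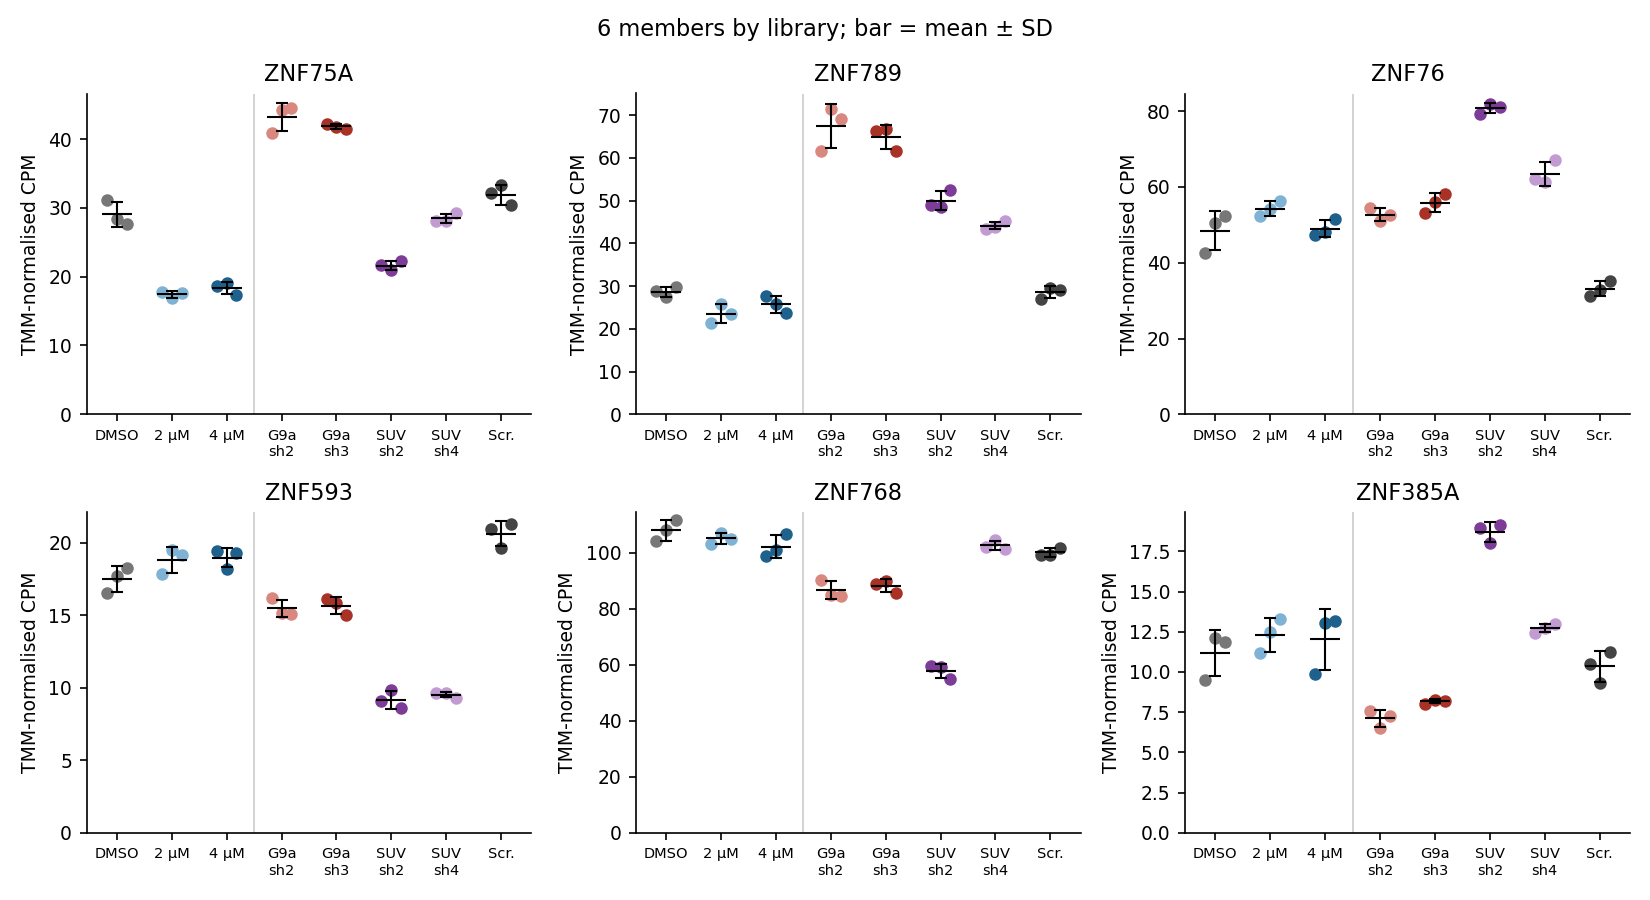
TMM-normalised CPM (vertical axes, from 0) of ZNF75A, ZNF789, ZNF76, ZNF593, ZNF768 and ZNF385A in each group; points are the 3 libraries and bars the mean ± SD. ZNF75A is lower with UNC0638 and higher with the G9a hairpins, and ZNF593 is low with both SUV39H1 hairpins. Of the SUV39H1 hairpins, only hairpin 2 has low ZNF768.

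The SUV39H1 hairpins differed from each other. With hairpin 2 relative to hairpin 4, 66 members were lower and 29 higher, where 22.0% and 20.9% of all genes were, and the members' median was -0.06. The 29 include ZNF300, which met the count minimum only through hairpin 2 and is described below. KRAB members had 33 lower and 7 higher of 84, and members in clusters 32 lower and 5 higher of 62. The chromosome 19 ZNF genes had 76 lower and 3 higher of 160. ZNF768 had 59.5, 59.1 and 54.9 CPM with hairpin 2, against 102, 105 and 102 CPM with hairpin 4, a log2 fold change of -0.83 ± 0.04 (edgeR adjusted p = 6.06e-15). It stood at 99.3, 99.4 and 102 CPM with scrambled, so of the SUV39H1 hairpins only hairpin 2 was low. With the G9a hairpins ZNF768 had a smaller fall, a log2 fold change of -0.20 (edgeR adjusted p = 3.53e-05). ZNF84 (-0.66), ZNF195 (-0.66) and ZNF140 (-0.63) were lower with hairpin 2 as well, and ZNF385A (0.56), ZNF25 (0.55), ZNF609 (0.51) and ZNF620 (0.45) were higher.

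SUV39H1 hairpins relative to G9a hairpins gave 84 lower and 59 higher members, where 32.9% and 32.6% of all genes were lower and higher. ZNF385A, a p53 partner known in blood cells, had 12.4 to 19.2 CPM over the 6 SUV39H1 libraries, against 6.53 to 8.28 CPM over the 6 G9a libraries. Its log2 difference was 1.02 ± 0.07 (edgeR adjusted p = 5.45e-13). ZNF25 (0.82), ZNF467 (0.79) and ZNF821 (0.77) were also higher, and ZNF75A (-0.78), ZNF593 (-0.74), ZNF140 (-0.66) and ZNF514 (-0.64) lower.

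The control groups also differed. With the scrambled hairpin relative to DMSO, 37 members were higher and 35 lower, where 14.9% and 16.5% of all genes were. ZNF395 (-0.67), ZNF687 (-0.66), ZNF654 (-0.57) and ZNF76 (-0.55) were the named lower members, and ZNF487 (0.70), ZNF511 (0.49), ZNF717 (0.47) and ZNF804A (0.45) the higher ones. ZNF395 averaged 71.5 ± 1.79 CPM in scrambled cells, against 113 ± 3.20 CPM in DMSO (SD, n = 3 each), a wider gap than its fall with either hairpin pair. Without DMSO replicate 2 or 3 the count of higher members was 23 or 22. Virus, selection and hairpin cannot be told apart in that comparison.

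Role lists are described by their counts. Of 10 general promoter and enhancer regulators, the log2 fold changes at 4 µM lay between -0.15 and 0.09, with 0 called by edgeR, 0 by DESeq2 and 2 at an unadjusted p under 0.05. In the same list 3 rose and 2 fell with the G9a hairpins, near the 25.0% and 24.9% of all genes, and 6 rose and 2 fell with the SUV39H1 hairpins, where 35.1% and 32.7% of all genes did. ZNF217, a co-repressor subunit, averaged 118 ± 3.84 and 102 ± 1.56 CPM with SUV39H1 hairpins 2 and 4, against 77.9 ± 2.16 CPM with scrambled (log2 0.49). ZNF652, a repressor, rose by 0.40 with the G9a hairpins and 0.20 with the SUV39H1 hairpins. ZNF143, the activator whose site core was searched above, changed by -0.29 with the SUV39H1 hairpins (edgeR adjusted p = 8.76e-06) and had log2 fold changes of -0.00 at 4 µM and -0.03 with the G9a hairpins, neither called.

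The partners of the G9a and GLP enzymes also differed. ZNF644 rose by 0.23 with the G9a hairpins (edgeR adjusted p = 0.00123), and ZNF518B fell with the SUV39H1 hairpins (-0.33). Among RNA-binding members, ZNF207 changed by 0.11 with the G9a hairpins and -0.14 with the SUV39H1 hairpins, ZNF638 by 0.28 with the SUV39H1 hairpins, and ZNF346 had -0.02 and -0.02 with no call. ZNF687 and ZNF592, which work with ZMYND8 at chromatin, had log2 fold changes of 0.87 and 0.10 with the SUV39H1 hairpins, the second not called.

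ZNF366, known as a marker of dendritic cells, met the count minimum only through the groups where it is high, so its values are a description. It is nevertheless counted among the 8 risen members at 4 µM and the 69 risen with the SUV39H1 hairpins, as a member without KRAB and outside clusters. ZNF300 likewise reached 10 reads only with SUV39H1 hairpin 2 (12, 10 and 19 reads). It is counted among the 29 members higher with that hairpin than with hairpin 4, as a KRAB member outside clusters. ZNF705E met the count minimum only through the G9a hairpin libraries. It had 5, 17 and 4 reads with G9a hairpin 2 and 11, 10 and 5 with hairpin 3, against 3, 4 and 4 with scrambled. It is counted among the 64 members risen with those hairpins, as a member without KRAB and outside clusters. The values that follow are those of ZNF366. It had 15, 9 and 16 reads at 4 µM, against 3, 1 and 2 reads in DMSO, a ratio per library size of 5.95 (95% exact binomial interval 2.51 to 17.2, counting error only). With SUV39H1 hairpin 2 it had 29, 17 and 28 reads and with hairpin 4 53, 58 and 48, against 1, 2 and 2 with scrambled, ratios of 16.0 (6.55 to 50.7) and 25.9 (10.9 to 80.7). With the G9a hairpins the ratio was 2.14 (0.791 to 7.23). Its level reached at most 1.17 CPM. Of the other blood lineage genes on that list, only ZNF385A passed the expression filter.

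The partners that KRAB proteins rely on were measured beside them. Of 26 such genes, none of which is a member, 1 rose and 5 fell at 4 µM, 10 rose and 6 fell with the G9a hairpins, and 9 rose and 15 fell with the SUV39H1 hairpins. The 26 include EHMT2 and SUV39H1, the targets of the hairpins. Their falls with their own hairpins, counted in the 6 and the 15, follow from the design. The shares of all genes were 10.2% higher and 9.73% lower at 4 µM, 25.0% and 24.9% with the G9a hairpins, and 35.1% and 32.7% with the SUV39H1 hairpins, so several of these counts lay near the background. TRIM28 averaged 446 ± 5.34 and 484 ± 16.5 CPM with SUV39H1 hairpins 2 and 4, against 664 ± 39.9 CPM with scrambled (log2 -0.51), and was not called at 4 µM (-0.08) or with the G9a hairpins (0.03). SETDB1 changed by -0.18 at 4 µM and 0.16 with the G9a hairpins. SUV39H2, the paralog of SUV39H1, averaged 13.5 ± 0.346 and 20.5 ± 0.558 CPM with the SUV39H1 hairpins, against 31.4 ± 2.57 CPM. Their part in the members' changes was not tested.

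Over all 8 groups, the lowest group mean of a member fell in SUV39H1 hairpin 2 for 63 of 198 members, in 4 µM UNC0638 for 35 and in 2 µM for 27. The highest group mean fell in SUV39H1 hairpin 2 for 42, in G9a hairpin 2 for 39 and in 2 or 4 µM UNC0638 for 7 each. Of the 197 tested members, 26 were called in none of 4 comparisons (2 and 4 µM relative to DMSO, each hairpin pair relative to scrambled) and 8 in all 4. Those 8, named after their values were seen, were ZNF395, ZNF26 and ZNF174, lower in each, ZNF75A and ZNF84, higher only with the G9a hairpins, and ZNF251, ZNF276 and ZNF516, lower with UNC0638 and higher with both hairpin pairs. The same counts over all genes are not given here, so none of the numbers in this paragraph is read as particular to the members.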

How the data were processed

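RNA-seq read counts per gene were deposited by the authors as 1 table of raw counts for 24 libraries. The reads were aligned with STAR to hg19 and counted with featureCounts, per the submitters' processing notes, which name no versions. Libraries held 31545854 to 53803704 counts. Genes passing filterByExpr (minimum count 10, minimum total 15; 20147 genes) were scaled by TMM and fitted with edgeR 4.0.16 (quasi-likelihood test, R 4.3.3, limma 3.58.1), with 1 mean for each of the 8 groups, and p-values were adjusted by Benjamini-Hochberg over all genes (threshold 0.05). The common biological coefficient of variation was 4.63%. The fit was tested on simulated data.

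The members and lists were chosen with earlier results of these data known. KRAB status came from a general-knowledge list or a residue pattern in the longest open reading frame of annotated transcripts, and the pattern was added after the data had been seen. Named members are the up to 12 higher and 12 lower of each main comparison (up to 4 in others) with the largest called changes, a mean of at least 1 CPM and no overlap with the control libraries, with both hairpins called alike for a mean of hairpins; members of role lists, described clusters and the 3 highest and 3 lowest levels were added. Same-numbered libraries had correlated deviations of -0.0693 to 0.228, not all above 0.1, so replicate numbers were not treated as pairs. No libraries of a group agreed within sampling noise. Alternatives were RLE scaling, DESeq2 1.42.0, no low-count filter, the compared libraries alone, a replicate block and leaving out each library. Promoters and motifs came from RefSeq on GRCh38.p14, and gene coordinates are those of the files on hg19. The levels of single markers of other lineages are not reported here.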

Additional observations from a re-analysis of the deposited data

Results flagged for a closer look

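The response to 4 µM UNC0638 (relative to DMSO) and the response to the G9a hairpins (relative to scrambled) differed in 28 members with the inhibitor response above and 75 with it below, by an interaction contrast in edgeR. The difference passed that test for each of the following members, given as inhibitor response minus hairpin response on the log2 scale. ZNF804A (0.72), ZNF487 (0.603), ZNF462 (0.597) and ZNF385A (0.552) lay above. ZNF789 (-1.37), ZNF75A (-1.08), ZNF596 (-0.801) and ZNF713 (-0.749) lay below. In the chromosome 12 cluster the difference was -0.523 for ZNF84, -0.408 for ZNF268, -0.387 for ZNF140 and -0.218 for ZNF26. ZNF462 no longer passed without DMSO replicate 1, and ZNF487 without 4 µM replicate 3, DMSO replicate 3 or scrambled replicate 3.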

How the results depend on the processing

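Member counts kept within 1.5 times of the reported count in 586 repeats, 34 moved further, and among repeats for named members 7519 kept their call, 197 lost and 22 gained one; no called member changed direction. With only the compared libraries fitted, 4 µM against DMSO gave 3 higher and 21 lower members, 2 µM against DMSO gave 1 and 13, 4 µM against 2 µM gave 1 lower, and scrambled against DMSO gave 22 higher; that fit has fewer samples. For 4 µM against 2 µM, DESeq2 gave 1 higher, and RLE scaling and no low-count filter each gave 1 lower. Leaving out single libraries gave 5 to 16 higher members at 4 µM, 2 to 5 higher at 2 µM, 1 to 2 lower for 4 µM against 2 µM and 22 to 51 higher for scrambled against DMSO. The replicate block gave 5 higher members at 2 µM, 46 lower and 9 higher at 4 µM, and moved no other count by more than 1.5 times. Correlations of same-numbered libraries among the UNC0638 and DMSO groups were 0.0198 to 0.228, which does not settle whether they were pairs. The cause of these shifts was not tested. Members under 1 CPM, such as ZNF10, ZNF366 and ZNF891, are limited by read number.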
